A study of Mus musculus with 10 samples.

Results

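Skeletal muscle genes were read in laser captures of nasal respiratory epithelium, a tissue of which muscle fibres are no constituent. The 40 genes form a list of sarcomere, calcium-handling, muscle-energy and myogenic genes taken by name, and each was read from a probe set that carries that gene as its single symbol (the brightest on average, where there were several). Of the 40 genes, 39 had such a probe set, out of 22180 genes in all, and Mybph was not analysed here. A filter removed the dimmest genes, those averaging under the 25th percentile, which was a log2 value of 4.58. It kept 34 of the 39 muscle genes and 16635 genes in all, and left out Myh1, Mybpc2, Actn3, Chrna1 and Myf6. Myh3, Mybpc1 and Actn2 passed the filter only through WT, their TKO means being below it.

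The arrays came from mouse embryos at stage E16.5, 1 array per embryo, and no source used here names the strain. The 5 triple knockout (TKO) embryos lacked 3 microRNA loci (miR-34a-/-, with miR-34b/c-/- and also miR-449a/b/c-/-), and 2 were labelled female and 3 male. The 5 wild-type (WT) embryos carried none of these deletions, and 4 were labelled female and 1 male (WT 3). The epithelium of all 10 was cut by laser from formalin-fixed paraffin sections, and values are log2 RMA intensities of Affymetrix whole-transcript arrays, on which levels of different probe sets cannot be set against each other. Between arrays the correlation over all probe sets was 0.975 to 0.989, and the number of arrays limits the precision. Epithelial markers were present on every array: the cadherin gene Cdh1 lay between 10.3 and 10.5 in TKO and between 10.4 and 10.6 in WT, and Foxj1, the regulator of motile cilia, lay between 10.9 and 11.1 in TKO and between 10.7 and 11.0 in WT. Whether embryos shared a litter is not stated, so p-values measure the spread between these embryos only.

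A muscle fibre contracts when thick filaments of myosin pull on thin filaments of actin, which are switched on by calcium through the troponin complex. Fast, slow, embryonic and neonatal fibres use different genes for the same part, and developing fibres carry embryonic and neonatal myosins before the adult ones replace them. Muscle cells arise under the myogenic factors Myf5, Myod1, Myog and Myf6. The single comparison of the design, TKO against WT, asks which genes change when the miR-34 and miR-449 families are lost.

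The most variable muscle genes had wide differences between captures of the same genotype. Acta1, the alpha-actin of skeletal muscle, was 5.78, 6.86, 6.23, 6.74 and 8.16 on the TKO arrays 1 to 5, against 9.39, 6.09, 9.83, 7.50 and 7.47 on the WT arrays 1 to 5. WT 3 and WT 1 were the highest, TKO 5 came next, and WT 2 lay among the TKO arrays, so the genotypes overlapped. From its lowest to its highest array Acta1 spanned 4.05 on the log2 scale, a 16.6-fold range. In bulk captures, fewer muscle cells and less of a transcript per cell cannot be told apart. Its SD over the 10 arrays was 1.37, rank 36 of the 16635 genes tested.

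The other muscle genes with large spread were mostly contractile genes of developing and fast fibres. Over the 12 muscle genes with the largest SD (Acta1, Mylpf, Actc1, Myh3, Tnnt3, Myh8, Tnni2, Actn2, Myl1, Tnnc2, Ckm and Ttn), WT 3 was the highest or next highest array for 12, WT 1 for 11 and TKO 5 for 1, and TKO 5 was the highest TKO array for all 12. Of the 34 muscle genes tested, 19 had their highest value on WT 3 (55.9%), where 10.1% of all genes tested did. An SD above 0.5 was found for 6 of the 34 (17.6%) and for 2.30% of all genes tested. Values by array are drawn in the map of the muscle genes.

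**Figure D1:**
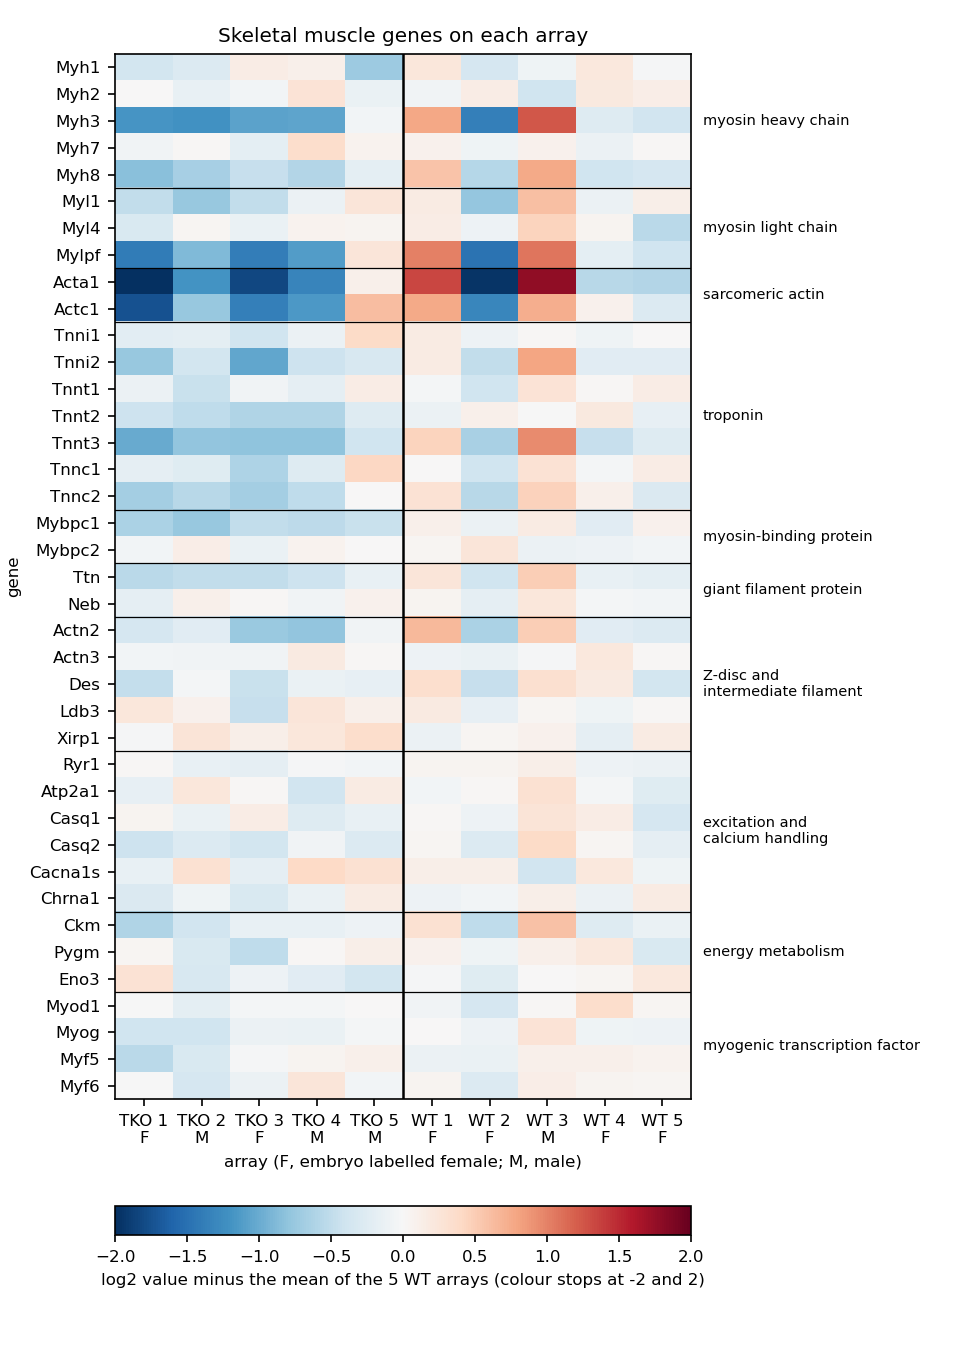
Heat map of the 39 muscle genes (rows, grouped by role) on each array (columns, TKO left and WT right, with the labelled sex). Colour is the log2 value minus the mean of the 5 WT arrays; WT 1, WT 3 and, among the TKO arrays, TKO 5 are the highest for Acta1 (9.39, 9.83 and 8.16) and for the genes that resemble it.

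Correlation with Acta1 over the 10 arrays is given as a description, since the genes share the same 10 captures and were listed with earlier results known. It was above 0.9 for 9 of the other muscle genes: Mylpf (0.99), Myh3 (0.97), Ttn (0.96), Tnnc2 (0.95), Myh8 (0.95), Tnnt3 (0.95), Actc1 (0.94), Ckm (0.92) and Tnni2 (0.90). Their Spearman values ran from 0.85 for Ckm to 0.99 for Mylpf. Without WT 3 and WT 1, the arrays farthest from the median of Acta1, the 9 values ran from 0.70 for Ckm to 0.98 for Actc1. Of the 33 tested muscle genes other than Acta1, 13 had a correlation above 0.8 (39.4%), as did 0.439% of all genes tested. The correlation was below 0.5 for 16 of the muscle genes, among them the adult fast myosin genes Myh1 (0.17) and Myh2 (-0.58), the slow myosin gene Myh7 (0.36) and the calcium release channel gene Ryr1 (0.45).

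The promoters of the 4 genes with the largest SD are shown because these genes varied together across captures. They are RefSeq sequences of build GRCm38.p6, each spanning the annotated start of the gene. Capitals mark a CArG box, the site of serum response factor, and the letters TATAAA, each searched on both strands.
Acta1, chr8:123894726-123895025, minus strand: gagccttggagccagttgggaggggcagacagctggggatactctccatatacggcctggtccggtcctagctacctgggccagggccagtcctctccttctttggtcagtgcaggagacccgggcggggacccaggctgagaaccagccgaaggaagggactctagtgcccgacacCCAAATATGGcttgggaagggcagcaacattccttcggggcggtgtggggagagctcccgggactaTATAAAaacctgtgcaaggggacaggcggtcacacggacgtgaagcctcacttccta
Mylpf, chr7:127211358-127211657, plus strand: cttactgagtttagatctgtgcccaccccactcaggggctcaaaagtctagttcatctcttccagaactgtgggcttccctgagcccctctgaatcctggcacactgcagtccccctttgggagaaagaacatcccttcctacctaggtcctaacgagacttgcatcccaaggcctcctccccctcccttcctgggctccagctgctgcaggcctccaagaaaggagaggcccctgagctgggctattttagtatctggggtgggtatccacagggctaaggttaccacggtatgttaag
Actc1, chr2:114052826-114053125, minus strand: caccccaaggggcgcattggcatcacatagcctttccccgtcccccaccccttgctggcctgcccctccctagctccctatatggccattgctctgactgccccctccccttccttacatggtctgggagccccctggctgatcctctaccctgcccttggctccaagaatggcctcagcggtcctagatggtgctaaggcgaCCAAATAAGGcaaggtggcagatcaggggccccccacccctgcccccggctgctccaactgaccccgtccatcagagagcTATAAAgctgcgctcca
Myh3, chr11:67078050-67078349, plus strand: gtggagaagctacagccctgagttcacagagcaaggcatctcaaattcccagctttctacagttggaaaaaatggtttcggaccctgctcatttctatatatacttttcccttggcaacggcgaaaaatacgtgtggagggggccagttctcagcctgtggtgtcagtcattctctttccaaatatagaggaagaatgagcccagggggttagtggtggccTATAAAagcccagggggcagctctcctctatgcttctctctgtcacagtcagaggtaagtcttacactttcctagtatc

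Acta1 and Actc1 each held 1 CArG box in these windows. Of 32 muscle genes with a promoter in the RefSeq table, 3 held one (9.38%), as did 1.57% of 27025 promoters of the same length. The MEF2 motif was found in 4 of the 32 (12.5%), Ttn and Myh8 among them, and in 3.26% of all promoters. The E-box letters CANNTG, which bind myogenic factors and many others, stood in 26 of the 32 (81.2%) and in 72.1% of all promoters, and TATAAA stood in 9 of the 32 (28.1%) and in 14.2% of all. These are matches of letters in the window and no evidence of binding; Mylpf had neither marked motif.

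Against this spread between captures, most muscle genes had fitted changes below 0 in TKO, and few passed the test. Of the 34 genes tested, 5 fell, none rose and 29 did not pass at an adjusted p of 0.05 (limma with labelled sex as a covariate, Benjamini-Hochberg over all 16635 genes). That is 14.7% lower, where 1.12% of all genes were called lower in TKO and 4.39% higher. Of the 5, Mybpc1 was in the tested set only through its WT values. At an unadjusted p below 0.05, limma had 17 of the 34 lower, where 7.72% of all genes were lower, and 0 higher, where 13.2% were. In all, 31 of 34 fitted changes were below 0 (91.2%), where 50.2% of all genes were. The median change of the 34 genes was -0.31 on the log2 scale, and that of all genes tested was -0.00052.

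The count of 5 depended on single arrays and on the sex term. Without WT 3 limma called none of the 34, and 10 were lower at an unadjusted p below 0.05. No WT male remained in that fit. With sex in the model, its genotype change therefore came from females alone, 2 TKO against 4 WT. This holds for every change given without WT 3, so the loss of 1 array and of the male comparison cannot be told apart. Over all genes the calls also dropped without WT 3, to 19 lower and 191 higher in TKO, against 186 and 730 with all arrays. Without sex in the model 2 were lower, Tnnt2 and Mybpc1, while 236 of all genes were. Leaving out TKO 1, TKO 2 or TKO 4 gave 3, leaving out TKO 3 gave 2, and leaving out WT 2, the WT array with the lowest Acta1, gave 11. Over all genes, those called lower were 79, 101 and 146 without TKO 1, TKO 2 and TKO 4. They were 60 without TKO 3 and 153 without WT 2. Without WT 1, WT 3 and TKO 5 together, limma called 0 of the 34, with 7 lower at an unadjusted p below 0.05, and the median change was -0.22. Over all genes that fit called 3 lower and 20 higher. Its genotype change likewise came from females alone, TKO 1 and TKO 3 against WT 2, WT 4 and WT 5.

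**Figure D2:**
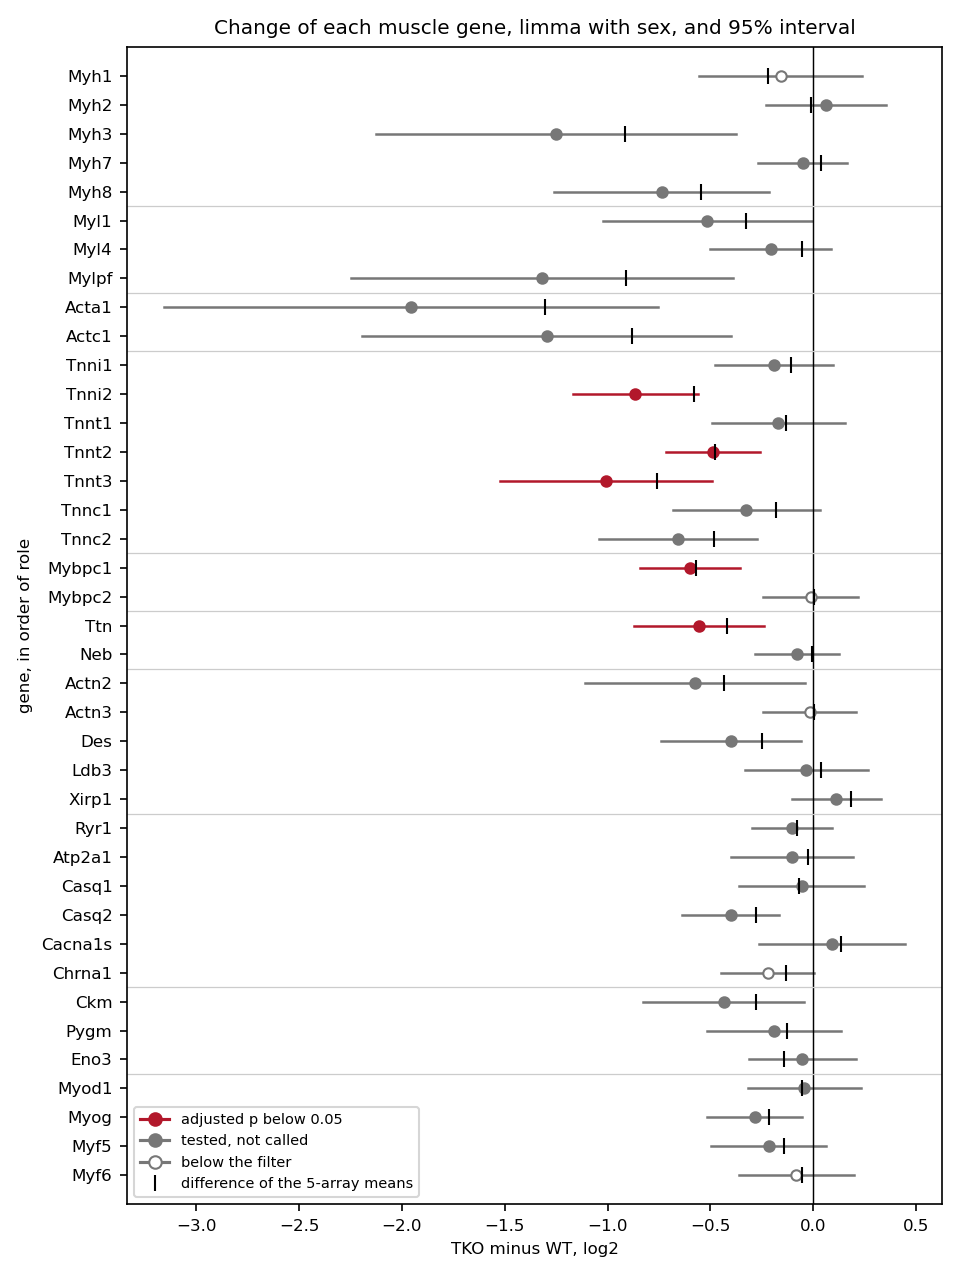
Change of each of the 39 muscle genes, TKO minus WT on the log2 scale, from limma with sex (dot) with its 95% interval (line), in order of role; the tick marks the plain difference of the 5-array means. The 5 red genes passed an adjusted p of 0.05, Acta1 has the lowest value, at -1.96, and open dots lay below the filter.

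The troponin genes held 3 of the 5 calls, and all 7 had changes below 0. Troponin I is the inhibitory subunit, troponin T ties the complex to tropomyosin and troponin C binds calcium. Tnni2, the fast troponin I, was 5.63, 6.03, 5.36, 5.99 and 6.08 in TKO, against 6.56, 5.90, 7.18, 6.17 and 6.16 in WT. All TKO arrays lay below WT 1, WT 3, WT 4 and WT 5, and WT 2 lay among them. Tnni2 fell 1.82-fold with sex in the model (95% interval 1.47 to 2.25, limma adjusted p = 0.00537), and without WT 3 its log2 change was -0.70 (limma adjusted p = 0.0696). The call also depended on the sex term, and without it the log2 change was -0.58 (limma adjusted p = 0.143). That is the plain difference of its means (exact two-sided permutation p = 0.0556).

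Tnnt3, the fast troponin T, was 5.17, 5.39, 5.38, 5.39 and 5.79 in TKO, against 6.63, 5.53, 7.13, 5.72 and 5.92 in WT. The genotypes overlapped through TKO 5, and WT 3 and WT 1 stood above the other WT arrays. Its log2 change was -1.01 ± 0.24 (SE, limma adjusted p = 0.0302), a 2.01-fold decrease, and -0.67 without WT 3 (limma adjusted p = 0.242). Leaving out TKO 1, TKO 2, TKO 3 or TKO 4 also ended this call. So did leaving out the sex term, with a log2 change of -0.76 (limma adjusted p = 0.11).

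Tnnc2, the fast troponin C, was 6.16, 6.29, 6.15, 6.32 and 6.84 in TKO, against 7.12, 6.28, 7.30, 6.94 and 6.55 in WT. TKO 5 lay within the WT range and WT 2 within the TKO range. The log2 change of -0.65 missed the threshold (limma adjusted p = 0.0529).

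The slow partners of these subunits had smaller fitted changes. Tnni1, the slow troponin I, was 5.60, 5.63, 5.43, 5.70 and 6.21 in TKO, against 5.98, 5.71, 5.85, 5.73 and 5.82 in WT, and TKO 5 was its highest array. Tnnt1, the slow troponin T, was 5.91, 5.59, 5.97, 5.85 and 6.18 in TKO, against 5.99, 5.63, 6.30, 6.05 and 6.18 in WT. Tnnc1, the troponin C of slow and cardiac muscle, was 6.65, 6.60, 6.21, 6.58 and 7.24 in TKO, against 6.84, 6.43, 7.12, 6.80 and 6.99 in WT. For all 3 the genotypes overlapped widely, and the log2 changes of -0.19, -0.17 and -0.33 did not pass (limma adjusted p = 0.454, 0.571 and 0.285). The difference in change between fast and slow partners was not tested.

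Tnnt2, the troponin T of heart and of embryonic skeletal muscle, had another order of arrays than the fast subunits. It was 6.73, 6.64, 6.54, 6.55 and 6.88 in TKO, against 7.03, 7.25, 7.13, 7.34 and 6.97 in WT. Every TKO array lay below every WT array, and WT 4 and WT 2, not WT 3 and WT 1, were the highest. Tnnt2 averaged 6.67 ± 0.14 in TKO and 7.14 ± 0.15 in WT (SD, n = 5 each), and fell 1.40-fold (limma adjusted p = 0.0203; exact two-sided permutation p = 0.00794, the smallest that 5 against 5 arrays can give). With each genotype's mean subtracted, its correlation with Acta1 over the arrays was -0.05. The log2 change was -0.49 with all arrays, -0.51 without WT 3 (limma adjusted p = 0.104) and -0.55 without WT 1, WT 3 and TKO 5 (limma adjusted p = 0.20). The call was also lost without TKO 3 (limma adjusted p = 0.108).

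Markers that define heart muscle were read beside Tnnt2. The atrial natriuretic peptide gene Nppa lay between 5.28 and 5.41 in TKO and between 5.24 and 5.70 in WT, and Myh6, the alpha-myosin of the heart, lay between 6.10 and 6.30 in TKO and between 5.70 and 6.24 in WT. Of 12 cardiac genes tested, 1 fell and none rose, where 1.12% of all genes were called lower and 4.39% higher. That gene, the pacemaker channel gene Hcn4, had a log2 change of -0.36 (limma adjusted p = 0.0485). Like Tnnt2 it did not overlap, lying between 4.86 and 5.25 in TKO and between 5.39 and 5.63 in WT. No other cardiac gene lay wholly lower in TKO, where 2.07% of all genes did. Fitted changes were below 0 for 10 of the 12, where 50.2% of all genes were. The list's per-array medians, relative to WT, ran from -0.12 to 0.10 in TKO and from -0.10 to 0.10 in WT.

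Mybpc1, the slow type of myosin-binding protein C, which ties myosin to the thin filament, was the other gene whose arrays separated. It was 4.49, 4.37, 4.63, 4.59 and 4.68 in TKO, against 5.22, 5.01, 5.29, 4.89 and 5.20 in WT. Every TKO array was below every WT array, with WT 4 the lowest of the WT arrays. Mybpc1 fell 1.51-fold (95% interval 1.28 to 1.79, limma adjusted p = 0.00998; exact two-sided permutation p = 0.00794), and its TKO mean of 4.55 lay below the filter value of 4.58. Within females the mean difference was -0.52 and within males, with WT 3 as the only WT male, -0.74. Without WT 3 the fitted log2 change was that same female difference, -0.52 (limma adjusted p = 0.108), and no separate check. Mybpc2, the fast type, lay below the filter, with a fitted change of -0.01. Groups without overlap were thus found for 2 of the 34 genes, both lower in TKO (5.88%), where 2.07% of all genes lay wholly lower and 5.54% wholly higher in TKO. Since Mybpc1 passed the filter only through WT, its place in this count rests on the group where it was high.

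**Figure D3:**
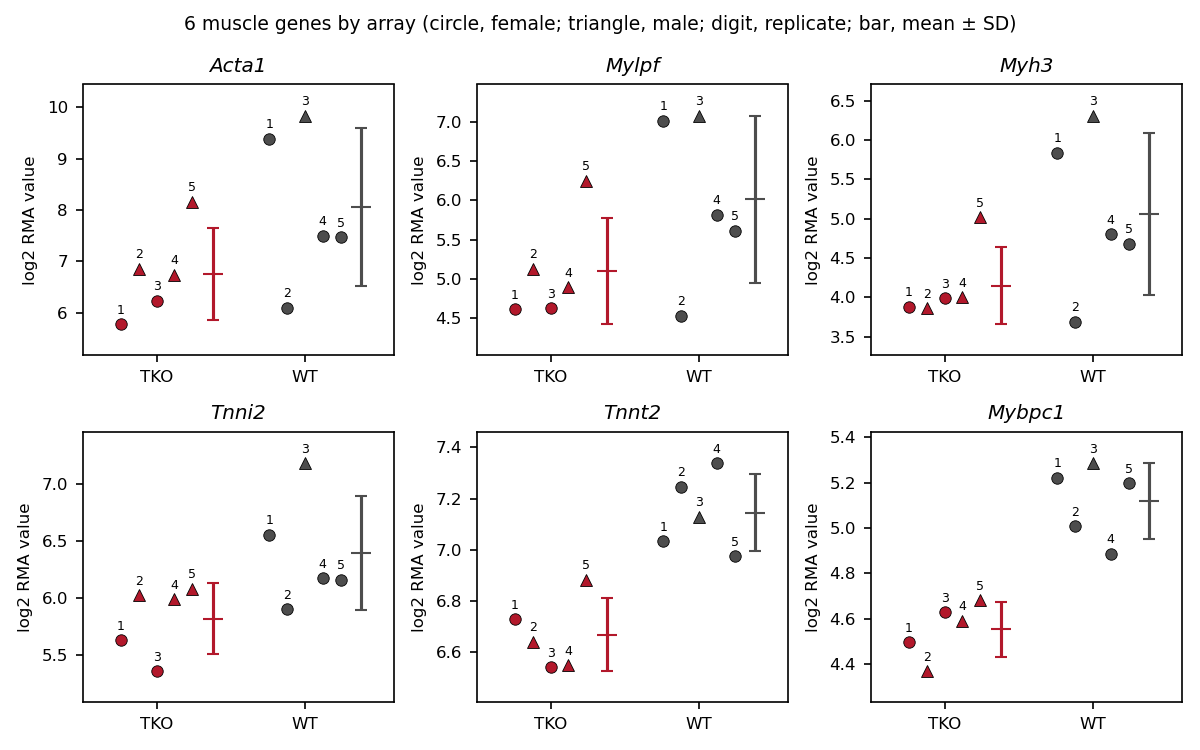
Log2 RMA values of 6 muscle genes on each array, TKO left and WT right; digits are replicate numbers, circles females, triangles males, and bars the mean ± SD of 5 arrays. Acta1, Mylpf, Myh3 and Tnni2 are highest on WT 3 and overlap between genotypes, while Tnnt2 and Mybpc1 do not overlap.

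Of the giant filament proteins 1 was called. Ttn, the molecular spring of the sarcomere, was 4.74, 4.79, 4.79, 4.86 and 5.14 in TKO, against 5.52, 4.89, 5.78, 5.12 and 5.09 in WT. Only TKO 5 reached into the WT range, and WT 3 and WT 1 were again the highest. Its 1.47-fold decrease had the highest adjusted p of the 5 calls (limma adjusted p = 0.0478) and was lost in 15 of 23 alternative settings. Among them were the fits without the sex term, without WT 1, without WT 3, without WT 4 and without any single TKO array. Neb, which spans the thin filament, lay between 5.33 and 5.62 in TKO and between 5.32 and 5.73 in WT (log2 change -0.08, limma adjusted p = 0.691).

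The 4 largest fitted changes were those of the actins Acta1 and Actc1, the light chain Mylpf and the heavy chain Myh3, and none of these passed. Acta1 averaged 6.75 ± 0.90 in TKO and 8.06 ± 1.54 in WT (SD, n = 5 each), with a fitted log2 change of -1.96 ± 0.55 (SE, limma adjusted p = 0.062). The difference of its means was -1.30 (exact two-sided permutation p = 0.167). WT 3, with the highest Acta1, is the only WT male, so sex and this capture cannot be told apart within WT. Within females the mean difference was -1.61 and within males -2.58. The fitted change lay below the difference of means for 30 of the 34 genes. Fit and plain means differ by the sex term, and the share over all genes was not counted.

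Actc1, the cardiac alpha-actin that is also the actin of embryonic skeletal muscle, was 5.56, 6.54, 5.93, 6.16 and 7.92 in TKO, against 8.06, 5.995, 8.03, 7.39 and 7.03 in WT. TKO 5 was close to WT 1 and WT 3, and WT 2 was close to TKO 3. Its log2 change was -1.29 (limma adjusted p = 0.0929).

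Among myosin heavy chains, the embryonic Myh3 and the neonatal Myh8 varied with Acta1. Myh3 was 3.88, 3.86, 3.99, 4.00 and 5.02 in TKO, against 5.84, 3.69, 6.31, 4.81 and 4.68 in WT. TKO arrays 1 to 4 and WT 2 were at the bottom, and TKO 5 lay above WT 4 and WT 5. Its fitted log2 change was -1.25 (limma adjusted p = 0.096), and -0.82 without WT 3. Myh8 was 4.98, 5.16, 5.36, 5.23 and 5.62 in TKO, against 6.38, 5.24, 6.57, 5.41 and 5.48 in WT, with a log2 change of -0.74 (limma adjusted p = 0.0994), and -0.46 without WT 3. WT 3 and WT 1 were again above the other arrays, which overlapped. A further probe set of Myh8, dimmer on average, had a log2 change of -0.41.

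The adult and slow heavy chains had a narrower spread. Myh2, an adult fast myosin, lay between 4.53 and 4.95 in TKO and between 4.28 and 4.88 in WT, with WT 3 its lowest array. Myh1, another adult fast myosin, was below the filter and lay between 3.89 and 4.75 in TKO and between 4.28 and 4.84 in WT. Myh7, the slow myosin of skeletal muscle and heart, lay between 5.35 and 5.90 in TKO and between 5.43 and 5.64 in WT. None passed, with limma adjusted p of 0.84 for Myh2, 0.73 for Myh1 and 0.825 for Myh7.

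Light chains stabilise the myosin neck. Mylpf, the fast regulatory light chain, was 4.61, 5.13, 4.63, 4.89 and 6.25 in TKO, against 7.02, 4.53, 7.08, 5.82 and 5.62 in WT. Its order over the arrays was close to that of Acta1, and its log2 change was -1.32 (limma adjusted p = 0.0978). Myl1, the fast essential light chain, was 5.48, 5.21, 5.48, 5.87 and 6.22 in TKO, against 6.14, 5.20, 6.58, 5.86 and 6.10 in WT, and TKO 5 was exceeded by WT 3 alone (log2 change -0.51, limma adjusted p = 0.232). Myl4, the embryonic and atrial light chain, lay between 6.16 and 6.54 in TKO and between 5.92 and 6.91 in WT (log2 change -0.21, limma adjusted p = 0.427).

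At the Z-disc, which anchors the thin filaments, Actn2 was 4.62, 4.72, 4.22, 4.17 and 4.88 in TKO, against 5.60, 4.33, 5.45, 4.73 and 4.68 in WT. WT 1 and WT 3 stood above the other arrays for this alpha-actinin, and its log2 change of -0.58 did not pass (limma adjusted p = 0.204). Des, the intermediate filament of muscle, had a change of -0.40 (limma adjusted p = 0.169). Ldb3 (-0.03) and Xirp1 (0.11) lay near 0.

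Ckm, the muscle creatine kinase, was 5.02, 5.24, 5.48, 5.47 and 5.52 in TKO, against 5.93, 5.11, 6.21, 5.37 and 5.48 in WT. Only WT 3 and WT 1 stood above the TKO arrays (log2 change -0.43, limma adjusted p = 0.189). Its change was -0.23 without WT 3 and -0.08 without WT 1, WT 3 and TKO 5. Pygm, the muscle glycogen phosphorylase, and Eno3, the muscle enolase, had changes of -0.19 and -0.05. A further, dimmer probe set of Ckm gave 5.41 on WT 1 and 5.24 on WT 3, with 5.48 on WT 4, so it did not repeat that order. Its log2 change was also below 0, at -0.34 (limma adjusted p = 0.207 over all probe sets).

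The calcium-handling genes that were tested had SDs over the 10 arrays between 0.10 for Ryr1 and 0.25 for Cacna1s, the voltage sensor of excitation. Casq2, the calcium store protein of slow and cardiac fibres, came closest to the threshold among them (log2 change -0.40, limma adjusted p = 0.0515). Casq1, its fast counterpart, Atp2a1, the calcium pump of fast fibres, and Ryr1 had changes of -0.06, -0.10 and -0.10. A further, dimmer probe set of Ryr1 had a larger log2 change of -0.21 (limma adjusted p = 0.245 over all probe sets). It was highest on WT 3 (5.32). Below the filter, Chrna1, a subunit of the acetylcholine receptor at the nerve contact, had a fitted change of -0.22 and Actn3, the alpha-actinin of fast fibres, -0.02.

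The myogenic transcription factors had SDs between 0.17 and 0.21, where the median over all genes tested was 0.17. Myod1 was 6.25, 6.06, 6.22, 6.22 and 6.27 in TKO, against 6.19, 5.92, 6.27, 6.61 and 6.30 in WT. Myf5 was 5.04, 5.28, 5.55, 5.64 and 5.67 in TKO, against 5.46, 5.44, 5.67, 5.67 and 5.64 in WT. Neither ranked WT 1 above the other WT arrays, and the genotypes overlapped in both.

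Myog, the factor of terminal fibre differentiation, was 5.69, 5.69, 5.97, 5.96 and 6.04 in TKO, against 6.10, 5.98, 6.36, 5.99 and 5.99 in WT, with WT 3 and WT 1 the highest. Myf6, below the filter, was 4.29, 3.97, 4.18, 4.54 and 4.23 in TKO, against 4.35, 4.02, 4.42, 4.35 and 4.34 in WT. None of the 4 passed: the log2 changes were -0.04 for Myod1, -0.22 for Myf5, -0.28 for Myog (limma adjusted p = 0.146) and -0.08 for Myf6.

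By fibre class, the per-array medians of the values relative to the WT mean differed most for embryonic or neonatal genes. For the 5 embryonic or neonatal genes the median was -0.83, -0.66, -0.60, -0.60 and -0.05 on TKO arrays 1 to 5, against 0.57, -0.58, 0.73, 0.05 and -0.34 on WT arrays 1 to 5. For the 11 fast genes it ran from -0.36 to 0.01 in TKO and from -0.33 to 0.31 in WT. For the 6 slow genes it ran from -0.38 to 0.11 in TKO, with TKO 5 the highest, and from -0.20 to 0.22 in WT. WT 3 was the highest WT array in each class and TKO 5 the highest TKO array. Of the genes tested, 2 of 8 fast, 1 of 6 slow and 1 of 5 embryonic or neonatal genes were called lower. The share over all genes was 1.12%. The slow gene called was Mybpc1, which passed the filter only through WT. The fifth call, Ttn, serves all fibres. Differences between the classes were not tested.

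**Figure D4:**
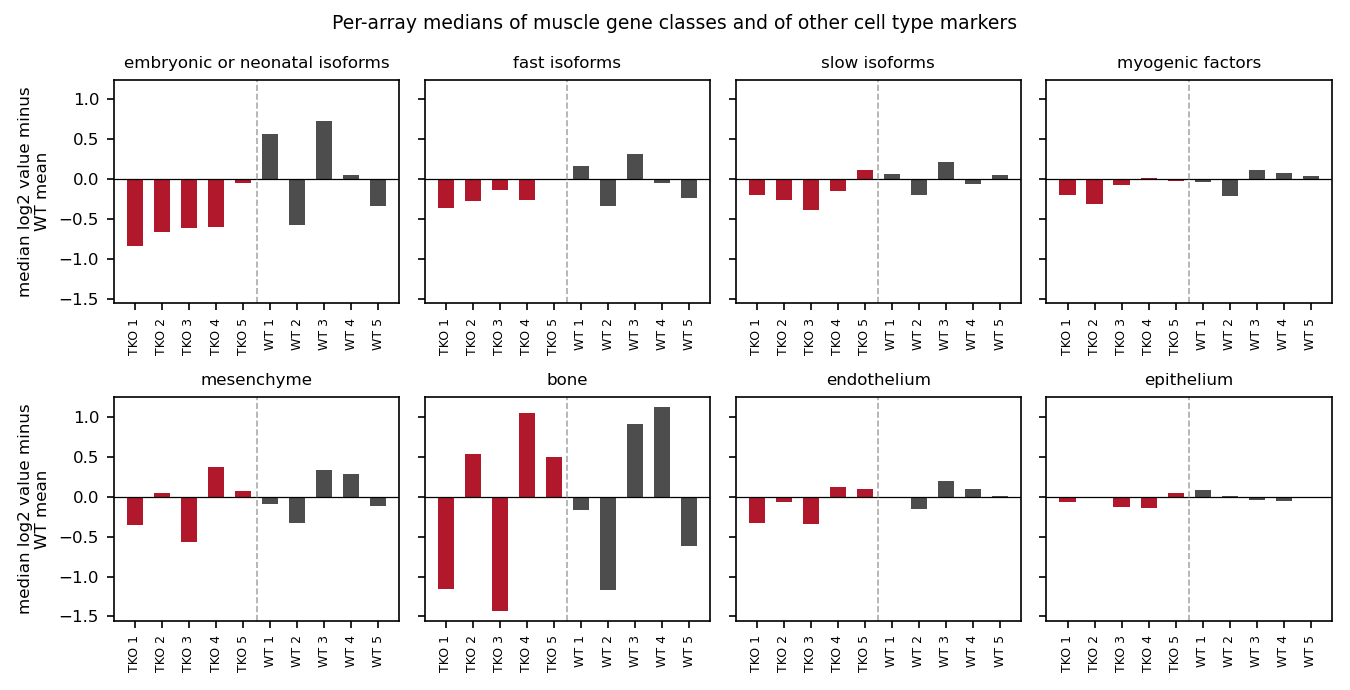
Per-array medians of log2 values minus the mean of the 5 WT arrays, TKO (red, left) and WT (grey, right), for classes of muscle genes and for markers of other cell types. The embryonic or neonatal class is highest on WT 3 (0.73) and WT 1 (0.57), and bone markers are high on WT 4 (1.12), TKO 4 (1.04) and WT 3 (0.91) and not on WT 1 (-0.17).

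A wider list of 94 other skeletal muscle genes, of which 74 were tested, held 1 call, where 1.12% of all genes were called lower, so the count is near the background. Ankrd2, a stretch-responsive protein of slow fibres, was 5.16, 5.49, 5.06, 5.27 and 5.66 in TKO, against 5.55, 5.44, 5.82, 5.64 and 5.48 in WT, and fell by 0.39 on the log2 scale (limma adjusted p = 0.0421). WT 3 was its highest array, and TKO 5 and TKO 2 lay within the WT range. None rose, and 9 of 74 were lower at an unadjusted p below 0.05 in limma, where 7.72% of all genes were. Of the 74 changes 60 were below 0, where 50.2% of all genes were, and the median was -0.10. The per-array medians of this wider list correlated with those of the muscle genes at 0.87 over the 10 arrays, the highest of the lists read. They spanned little, from -0.12 to -0.02 in TKO and from -0.05 to 0.05 in WT, relative to the WT mean. Correlation with Acta1 was above 0.8 for 3 of the 74 (4.05%): Csrp3, the muscle LIM protein (0.90), Nrap, which helps build myofibrils (0.87), and Cox8b, a subunit of cytochrome oxidase in muscle (0.86). Csrp3 reached 6.96 on WT 3 and 6.24 on WT 1 and lay between 4.94 and 5.60 in TKO (log2 change -0.90, limma adjusted p = 0.0842). Pax3 and Pax7, known from muscle precursors and also from the neural crest, had correlations with Acta1 of -0.28 and -0.30.

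Outside the list, the 10 named genes whose values correlated most with the per-array median of the muscle genes were Esyt1 (0.96), Herc6 (0.95), Csrp3 (0.93), Cd52 (0.93), Creb3 (0.92), Nrap (0.92), Arrdc1 (0.91), Plpp5 (0.91), Hrh1 (0.91) and Mir202 (0.90). Without WT 3 and WT 1 the 10 values ran from 0.75 for Mir202 to 0.91 for Herc6. Only Csrp3 and Nrap belong to the wider muscle list. These were picked as the highest, over 10 points, of the tested genes outside the list, and carry no test. Provisional symbols (such as Gm and Rik) and olfactory and vomeronasal receptor genes were left out before the pick.

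Markers of other tissues near the epithelium were read on the same arrays. The median change of 18 mesenchyme genes was -0.34, and 1 of them, the collagen gene Col3a1, was called lower (log2 change -0.48, limma adjusted p = 0.0234). Over all genes 1.12% were called lower. Relative to WT, the mesenchyme medians ran from -0.57 to 0.37 in TKO and from -0.33 to 0.33 in WT. WT 3 was high (0.33), whereas WT 1 was not (-0.10), and TKO 4 was the highest of all.

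The 10 bone genes had a median change of -0.72 and none passed; Mmp9, a protease of osteoclasts, had a log2 change of -1.29 and Acp5, an osteoclast phosphatase, -0.85 (limma adjusted p = 0.215 and 0.152). Their per-array medians ran from -1.43 to 1.04 in TKO and from -1.16 to 1.12 in WT. Bone and muscle genes were both low on TKO 1, TKO 3 and WT 2 and both high on WT 3 (bone 0.91), and TKO 5 was above 0 for bone (0.50). TKO 4 and WT 4 were high for bone and not for muscle, and WT 1 was high for muscle and not for bone. TKO 2 was also above 0 for bone (0.53) but low for muscle (-0.27). Over the 10 arrays the medians of bone correlated with those of the muscle genes at 0.59 and the medians of mesenchyme at 0.64, given as a description. Other lists had similar values: glia 0.71, leukocytes 0.65, cartilage 0.63, smooth muscle 0.59 and cardiac muscle 0.53. Lower ones were epithelium (0.37), erythroid cells (0.36) and neurons (-0.19).

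Over all genes 1.12% were called lower, and 1 of 13 endothelial genes was. It was Tie1, an endothelial receptor (log2 change -0.39, limma adjusted p = 0.04). The 13 endothelial genes had a median of -0.23. Their per-array medians ran from -0.34 to 0.12 in TKO and from -0.16 to 0.20 in WT, with WT 3 the highest, and moved with those of the muscle genes (correlation 0.81 over the 10 arrays). The medians of myoepithelial genes, which include contractile genes, also moved with them (0.84) and were highest on TKO 5 (0.17) and WT 3 (0.16). This list is no separate readout: it shares Krt5 and Krt14 with the epithelial list and Acta2, Myh11, Cnn1 and Mylk with the smooth muscle list. Of 12 smooth muscle genes none fell and 1 rose, the small heat shock protein gene Hspb6 (log2 change 0.39, limma adjusted p = 0.0471), and the list's median was -0.05. Over all genes 4.39% were called higher. None of the 19 epithelial genes passed, with a median of -0.06; Grhl2, an epithelial transcription factor, and Foxj1 came nearest (limma adjusted p = 0.0702 and 0.0784).

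No gene passed among the remaining lists. Their median changes were -0.17 for 13 cartilage genes, -0.21 for 11 leukocyte genes, -0.06 for 7 glial genes, 0.13 for 10 neuronal genes, -0.15 for 3 erythroid genes and -0.03 for 6 myoepithelial genes. The genes with the smallest p-values were Hapln1 (0.38) and Sox6 (-0.31) for cartilage, Itgam (-0.37) and Adgre1 (-0.25) for leukocytes, and S100b (-0.68) and Erbb3 (-0.23) for glia. For neurons they were Stmn2 (0.39) and Ncam1 (-0.26), for erythroid cells Epb42 (-0.17) and Slc4a1 (-0.15), and for myoepithelium Mylk (-0.32) and Krt14 (-0.24), all as log2 changes. The part of non-epithelial tissue in the muscle differences between genotypes was not tested.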

How the data were processed

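RNA of 10 captures, 1 per embryo, was measured on Affymetrix arrays. Per the labels and the submitters' processing notes, the authors made the deposited log2 values with RMA in Affymetrix Expression Console, with no version given there. Values of 1.50 to 13.7 show the log2 scale. Of 41345 probe sets, 23521 have 1 symbol in the platform annotation, 1814 have several and 16010 have none; only those with 1 symbol are named.

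The TKO and WT arrays were tested in R 4.3.3 by limma 3.58.1 (genotype and labelled sex, eBayes with an intensity trend, two-sided, 252 assignments for exact permutation). The script was tested on simulated arrays. The muscle genes, the lists and the tests were chosen with earlier results of these data known. Values on every array are given for the listed muscle genes past the threshold, the 12 with the largest SD, the 4 myogenic factors and the fast and slow troponins. Cox8b, Csrp3, Pax3 and Pax7 were chosen for description after their values were seen, as were the 3 arrays left out together. Figures used matplotlib 3.10.9.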

Additional observations from a re-analysis of the deposited data

Results flagged for a closer look

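Of 42 groups of 5 arrays (21 muscle genes in each genotype), 4 held an array set apart from the others by Dixon's criterion at its 95% critical value, which chance passes in about 1 of 20 groups. Myh3 was 5.02 on TKO 5, against 3.86 to 4.00 on the other TKO arrays. Tnnc2 was 6.84 on TKO 5, against 6.15 to 6.32 on the other TKO arrays. Myod1 was 6.06 on TKO 2, against 6.22 to 6.27 on the other TKO arrays. Myf6 was 4.02 on WT 2, against 4.34 to 4.42 on the other WT arrays.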

How the results depend on the processing

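No alternative gave a muscle gene called higher in TKO. The count called lower, 5 of 34, was 2 without the sex term, 0 in females only, 12 with the replicate block, 3 of 9 with the filter at the 50th percentile, 8 with array weights and 0 without WT 1, WT 3 and TKO 5 together. Leaving out each array in turn gave 0 to 11. The median change stayed below 0 in all alternatives, was -0.20 without the sex term and -0.49 with the filter at the 50th percentile, and ran from -0.36 to -0.27 with each array left out. The change of Myod1 was 0.028 without WT 4 and ran from -0.11 to 0.028 with each array left out. Over all genes, 730 were higher and 186 lower. Those higher were 52 in females only and 20 without the 3 arrays, and 191 to 886 with each array left out. Those lower were 236 without the sex term, 4 in females only, 282 with the replicate block and 268 with array weights. They were 186 of 11090 with the filter at the 50th percentile and 121 with arrays centred on their median. Without the 3 arrays they were 3, and with each array left out 19 to 398. The 1 call among the other skeletal muscle genes became 0 without the sex term, in females only, with no filter, with the filter at the 50th percentile, with all probe sets kept apart, with arrays centred or quantile normalized again, and without the 3 arrays. It became 2 with the replicate block or array weights, and ran from 0 to 2 with each array left out. The cause of these differences was not tested. Of the alternatives for single genes, 18 gained a call and 36 lost one. The replicate block is no paired analysis here, since the labels give no shared litter or day. With each genotype's mean subtracted per gene, same-numbered arrays had correlations of -0.13 to 0.38, and 1 of 5 correlated best with its own number. No scanner files were used, so no detection call is given for dim probe sets.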
